A study of Mus musculus with 5 samples.

Results

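Lymphoid priming genes belong to the lymphoid programme that multipotent blood progenitors begin to transcribe before they commit to the B or T cell lineage. The set held 9 genes chosen by symbol, namely Dntt, Rag1, Rag2, Jchain, Ikzf1, Ikzf3, Satb1, Notch1 and Tcf3. Of these, 8 had a row in the table of 11352 genes, and Rag1 was not analysed here. The table held genes above 1 normalized CPM (the deposited read counts scaled to library size) in at least 3 of 5 libraries, and all 8 were above 1 in all 5.

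RNA-seq had been made from mouse haematopoietic stem and progenitor cells (HSPCs) sorted for KIT and SCA1 and against lineage markers and CD135. Of the 5 libraries, 3 came from mice with Cux1 knocked down that also carried NrasG12D (Cux1-low;NrasG12D, called NrasG12D libraries here), and they were set against 2 from mice with the Cux1 knockdown alone (Cux1-low). Both groups therefore carried the knockdown of CUX1, a homeodomain transcription factor, and mice of both had been given doxycycline and the interferon inducer pI:C for 4 weeks. NrasG12D encodes an oncogenic form of the GTPase NRAS. The labels name neither the promoter that drives the knockdown, nor a Cre driver, nor the age or strain of the mice, and leave unsaid whether the libraries are separate animals. The p-values therefore rest on a spread between libraries that may be technical.

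In the mouse, lymphoid priming is a gradual event: stem and multipotent cells first open chromatin at lymphoid genes and transcribe some of them at low level, and full expression follows in lymphoid progenitors. The E protein TCF3 (E2A) and the zinc finger factor IKZF1 (Ikaros) are needed for this step, Notch signals direct progenitors to the T lineage, and RAG1, RAG2 and terminal transferase later assemble and diversify antigen receptor genes. In bulk RNA, fewer cells that express a gene and less RNA per cell cannot be told apart.

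The promoters of the 3 genes whose values ranged most between libraries, Dntt, Rag2 and Jchain, are shown because E proteins such as TCF3, itself a member, bind the E-box CANNTG. Capitals mark each CANNTG, a motif whose general form reads the same on both strands. Each sequence runs 5′ to 3′ along the gene from 250 bases before to 50 bases after the RefSeq transcription start (GRCm38.p6).
Dntt, chr19:41029025-41029324, plus strand: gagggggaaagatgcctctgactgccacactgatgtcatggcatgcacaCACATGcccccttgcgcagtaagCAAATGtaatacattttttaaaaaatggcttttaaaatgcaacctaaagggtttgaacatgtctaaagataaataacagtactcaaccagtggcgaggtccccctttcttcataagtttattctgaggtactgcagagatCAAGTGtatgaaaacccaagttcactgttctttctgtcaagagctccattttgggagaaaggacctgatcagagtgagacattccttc
Rag2, chr2:101624462-101624761, plus strand: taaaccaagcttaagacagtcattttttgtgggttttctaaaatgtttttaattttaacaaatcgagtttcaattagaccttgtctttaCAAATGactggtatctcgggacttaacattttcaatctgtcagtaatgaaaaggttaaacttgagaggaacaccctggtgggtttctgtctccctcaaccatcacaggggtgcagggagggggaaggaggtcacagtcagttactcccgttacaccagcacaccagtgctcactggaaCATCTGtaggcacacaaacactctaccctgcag
Jchain, chr5:88527848-88528147, minus strand: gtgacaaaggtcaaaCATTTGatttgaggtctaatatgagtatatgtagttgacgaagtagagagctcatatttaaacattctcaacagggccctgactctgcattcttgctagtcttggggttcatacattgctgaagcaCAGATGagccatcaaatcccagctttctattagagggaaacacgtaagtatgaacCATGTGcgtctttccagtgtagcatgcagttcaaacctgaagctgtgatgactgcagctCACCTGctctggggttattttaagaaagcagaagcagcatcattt
The Dntt window held 3 E-boxes, the Rag2 window 2 and the Jchain window 4, and 72.3% of 32851 mouse promoter windows of this length held at least 1. The form CAGGTG or CACCTG, which is part of the CANNTG class, stood once in the Jchain window, as CACCTG with its first base at position 6 of the transcript, and in 20.2% of all windows. The core TGGGAA or TTCCCA, shared by Ikaros and by the Notch partner RBPJ, was in none of these 3 windows and in 25.6% of all. RefSeq promoters were found for 8 of the 9 members, Ikzf3 being the one not matched. The windows of Ikzf1 and Notch1 held no CANNTG. A match is a string of letters and not a binding site.

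Taking the common step of the values as 1 read, the libraries held 16489711 to 20262498 recovered reads over the listed genes, and 1 read was worth 0.0481 to 0.0608 normalized CPM. Cux1 was at 311, 279 and 307 normalized CPM in NrasG12D libraries and 306 and 281 in Cux1-low libraries, so the groups overlapped for the gene that both have knocked down. Nras was at 126, 124 and 113 in NrasG12D libraries and 144 and 115 in Cux1-low libraries, and its level does not show the mutation. Of the gate genes, Kit was at 477, 569 and 816 in NrasG12D libraries and 1359 and 1373 in Cux1-low libraries. Ly6a, which encodes SCA1, was at 24.2, 14.2 and 37.7 in NrasG12D libraries and 44.7 and 48.7 in Cux1-low libraries. The lineage gene Cd3e was not listed. Another lineage gene, Itgam, was at 17.9, 12.3 and 22.2 in NrasG12D libraries and 30.8 and 51.3 in Cux1-low libraries. Over all genes, 29 rose and 99 fell in NrasG12D libraries, and without NrasG12D library 3 the counts were 2043 and 2200. NrasG12D library 3 therefore stood apart from libraries 1 and 2, and the members' differences and the list counts are given with and without it. The choice of this library rests on the rise in calls without it, so p-values and counts from that fit are descriptions.

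Among the 8 lymphoid priming genes, 0 passed (limma adjusted p under 0.05), against 1.13% of all genes (0.255% higher and 0.872% lower), and 3 had an unadjusted p under 0.05 (Jchain, Satb1 and Tcf3), against 31.4% of all genes. The groups did not overlap for 5 of the 8, 2 higher (Tcf3 and Ikzf1) and 3 lower (Jchain, Satb1 and Notch1) in NrasG12D libraries, against 53.5% of all genes (26.5% higher and 27% lower). In the authors' deposited table, 2 of the 8 passed, both lower in NrasG12D (Jchain and Satb1), against 6.97% of all genes called higher and 9.14% called lower there. The other 6 had adjusted p of 0.104 to 0.886 in the authors' deposited table. Without NrasG12D library 3, 3 rose (Dntt, Rag2 and Tcf3) and 2 fell (Jchain and Satb1), against 37.4% of all genes called in that fit (18% higher and 19.4% lower). In each fit that left out another library 0 members passed, against 0.194% of all genes without NrasG12D library 2 and 0.0264% without each of the other libraries. With the replicate number as a block 5 passed, against 36.7% of all genes. The median log2 difference of the 8 was 0.09, and that of all genes was close to 0 (-0.0030). Of the members 5 had a positive and 3 a negative sign, so the median stands for none of them.

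**Figure D1:**
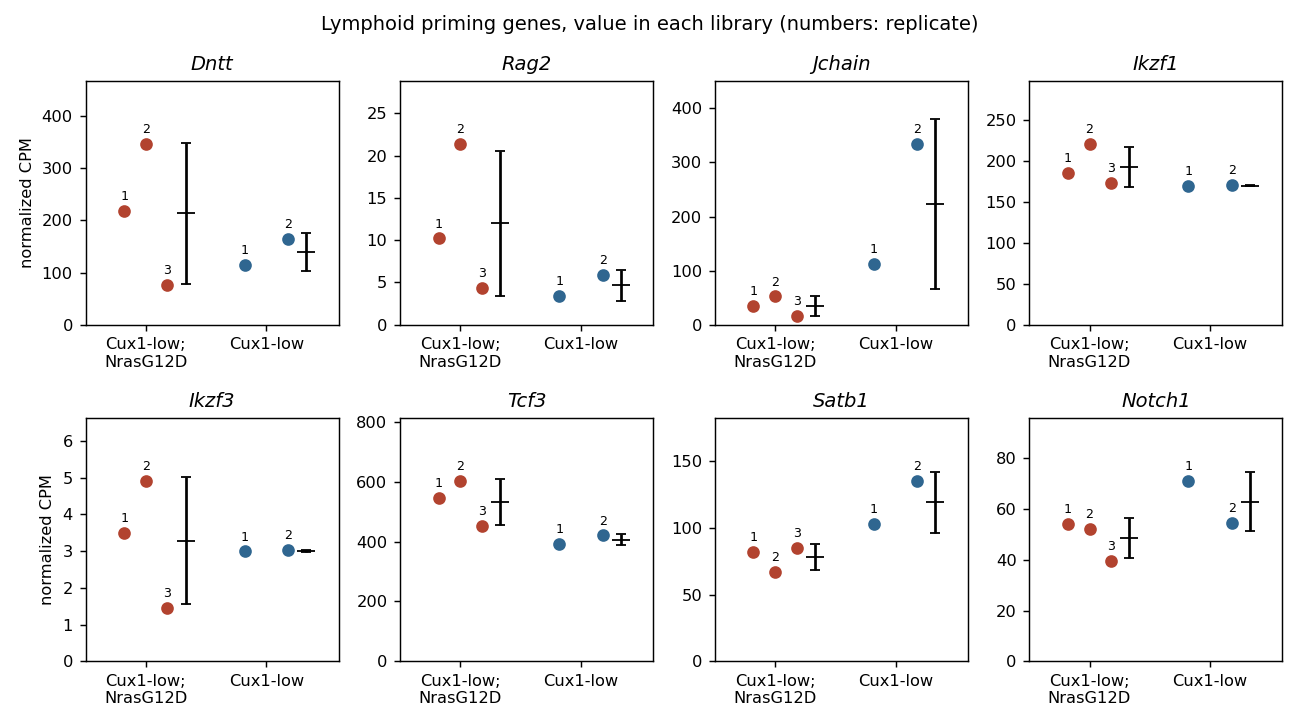
Value of each of the 8 listed lymphoid priming genes in normalized CPM (vertical axes, from 0) in the 3 Cux1-low;NrasG12D libraries (left, red) and the 2 Cux1-low libraries (right, blue). Points are libraries with their replicate number, and black bars are the mean ± SD. Jchain lies at 16.1 to 52.2 on the left and at 113 and 334 on the right, while for Dntt and Rag2 the third NrasG12D library lies among or below the Cux1-low libraries.

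Dntt and Rag2, which act in antigen receptor assembly, had their highest values in NrasG12D libraries 1 and 2. Dntt (mm10, as for all genes here, chromosome 19, 41029275 to 41059525, plus strand) encodes terminal deoxynucleotidyl transferase, which adds untemplated nucleotides at the joints of rearranging receptor genes. It was at 218, 346 and 76.7 normalized CPM in NrasG12D libraries and at 114 and 165 in Cux1-low libraries. NrasG12D libraries 1 and 2 lay above both Cux1-low libraries, and library 3 was the lowest of all 5, so the groups overlapped. The mean was 214 ± 135 in NrasG12D (SD, n = 3) and 140 ± 35.8 in Cux1-low libraries (SD, n = 2). On the log2(normalized CPM + 1) scale, used for all differences here, the difference was 0.39 (SE 0.57, limma adjusted p = 0.655). Without NrasG12D library 3 it was 0.996 (SE 0.25, limma adjusted p = 0.0217), and without NrasG12D library 2 the sign turned (-0.084, limma adjusted p = 0.923). The spread of Dntt among NrasG12D libraries was large for this table: 0.352% of all genes had a larger SD of log2 values there.

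Rag2 (chromosome 2, 101624718 to 101632529, plus strand) encodes the partner of RAG1 in the recombinase that cuts receptor genes. It was at 10.2, 21.3 and 4.37 normalized CPM in NrasG12D libraries and at 3.38 and 5.92 in Cux1-low libraries, which are 199, 374 and 72 recovered reads in NrasG12D libraries and 69 and 123 in Cux1-low libraries. The order of the NrasG12D libraries was that of Dntt, with library 2 highest and library 3 lowest, and library 3 lay between both Cux1-low libraries. The mean was 11.97 ± 8.62 in NrasG12D (SD, n = 3) and 4.65 ± 1.79 in Cux1-low libraries (SD, n = 2). The difference was 1.003 (SE 0.56, limma adjusted p = 0.254), and 1.52 without NrasG12D library 3 (SE 0.37, limma adjusted p = 0.0198). Without NrasG12D library 2 it was 0.49 (limma adjusted p = 0.480). The exons of Rag2 share 208 bases with B230118H07Rik on the other strand, and the strand setting of the counting is not known here, so a share of these reads is uncertain.

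Markers of pro-B and pre-B cells, in which Dntt and Rag2 are also expressed, varied with the same libraries. Of 18 such markers 9 were listed and 0 passed over all genes. Without NrasG12D library 3 all 9 listed rose, against 18% of all genes. The summed level of the 9 was 429 to 1150 normalized CPM in NrasG12D libraries and 391 in both Cux1-low libraries. The defining marker Pax5 was not listed. Without Cd24a, the most abundant of the 9 and a gene of many blood cells, the sum was 246, 503 and 59.8 in NrasG12D libraries and 57.8 and 79.8 in Cux1-low libraries. Vpreb3, which encodes a protein of precursor B cells, was at 20.2, 48.0 and 2.31 in NrasG12D libraries and at 0.931 and 1.64 in Cux1-low libraries (log2 difference 2.74, SE 1.0, limma adjusted p = 0.125). The order of the NrasG12D libraries, 2 over 1 over 3, was that of Dntt and Rag2. Among the 9 listed markers, 5 were called higher and 0 lower in the authors' deposited table, against 6.97% and 9.14% of all genes. The sort against lineage markers is meant to remove B lineage cells, and the part of any that remained in the Dntt and Rag2 values was not tested.

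The other genes of V(D)J recombination and of the end joining that completes it gave 1 call. Hmgb1, which encodes a DNA-bending cofactor of the recombinase and an abundant chromatin protein of most cells, rose to 107, 109 and 87.4 normalized CPM in NrasG12D libraries, against 47.5 and 44.0 in Cux1-low libraries (log2 difference 1.12, SE 0.13, limma adjusted p = 0.0327). The genome holds near-identical copies of Hmgb1, so its level is uncertain, and the call was lost when any library other than NrasG12D library 3 was left out (limma adjusted p = 0.0604 to 0.335), while the difference was 1.06 to 1.17 in those fits, in which 3 to 22 of all genes passed. Of 12 genes 1 rose, 0 fell and 11 did not pass, and the median log2 difference was 0.18. Hmgb2, its paralog, was at 206, 213 and 82.6 normalized CPM in NrasG12D libraries and 82.1 and 111 in Cux1-low libraries, and was chosen after its values were seen. Xrcc6, which encodes the end-binding protein KU70, was at 240 ± 14.9 in NrasG12D (SD, n = 3) and 196 ± 8.19 in Cux1-low libraries (SD, n = 2), with a log2 difference of 0.29 (limma adjusted p = 0.119). Without NrasG12D library 3, 3 of the 12 rose and 0 fell, against 18% and 19.4% of all genes.

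Jchain (chromosome 5, 88519809 to 88527891, minus strand) encodes the joining chain of polymeric IgM and IgA, made in plasma cells and also transcribed in early lymphoid-primed progenitors. It was at 35.1, 52.2 and 16.1 normalized CPM in NrasG12D libraries and at 113 and 334 in Cux1-low libraries. Every NrasG12D library lay below both Cux1-low libraries, and the pair of Cux1-low libraries differed 2.97-fold between themselves. The mean was 34.5 ± 18.1 in NrasG12D (SD, n = 3) and 223 ± 156 in Cux1-low libraries (SD, n = 2), 6.48-fold lower. The log2 difference of -2.61 (SE 0.57, limma adjusted p = 0.0667) did not pass, although 0.123% of all genes had a larger difference in either direction. It was -2.15 without NrasG12D library 3 (SE 0.46, limma adjusted p = 0.0134), and leaving out 1 library at a time gave -3.39 to -1.83. In the authors' deposited table, Jchain had a log2 fold change of -2.69 with an adjusted p of 0.000108.

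Plasma cell markers were read beside Jchain. Of 12 markers 7 were listed and 0 passed, with 3 positive and 4 negative signs and a median log2 difference of -0.10. Without NrasG12D library 3, 1 of the 7 fell and 0 rose, against 19.4% and 18% of all genes. The summed level of the 7 was 485 to 553 normalized CPM in NrasG12D libraries and 477 and 568 in Cux1-low libraries. Prdm1, Irf4, Tnfrsf17 and Ighm were not listed. Most of this sum came from Txndc5 and Xbp1, secretory pathway genes that many cell types express. Tnfrsf13b, which encodes the receptor TACI of B lineage cells, was at 14.9 ± 0.944 normalized CPM in NrasG12D (SD, n = 3) and 23.5 ± 3.89 in Cux1-low libraries (SD, n = 2), a log2 difference of -0.62 (limma adjusted p = 0.0835). Creb3l2, a stress-response factor of secretory cells, gave -0.34 (limma adjusted p = 0.188). Mzb1, a chaperone gene of antibody-secreting cells chosen after its values were seen, gave 0.75 (limma adjusted p = 0.541). The part of plasma cells in the Jchain values was not tested.

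**Figure D2:**
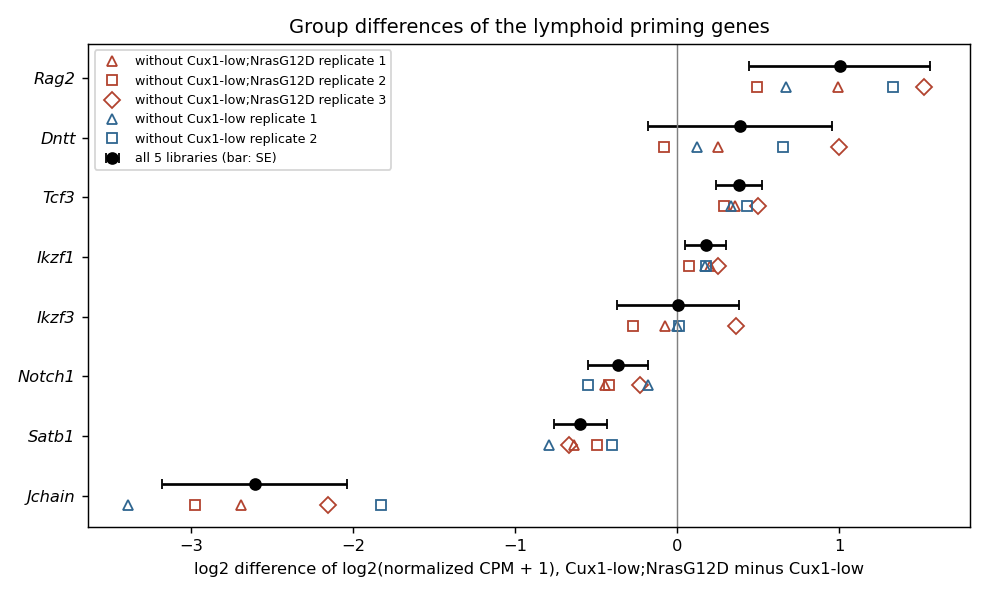
Log2 difference (horizontal axis, Cux1-low;NrasG12D minus Cux1-low, of log2(normalized CPM + 1)) of the 8 listed genes. Black points with bars are the fit of all 5 libraries with its SE, and open symbols are fits that leave out 1 library. Jchain stays between -3.39 and -1.83, while Dntt runs from -0.084 to 0.996.

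Tcf3 (chromosome 10, 80409514 to 80433647, minus strand) encodes E2A, the E protein that activates early lymphoid genes. It was at 545, 602 and 451 normalized CPM in NrasG12D libraries and at 393 and 420 in Cux1-low libraries, with every NrasG12D library above both Cux1-low libraries. The mean was 533 ± 76.4 in NrasG12D (SD, n = 3) and 406 ± 19.7 in Cux1-low libraries (SD, n = 2), a 1.31-fold ratio. The log2 difference was 0.38 (SE 0.14, limma adjusted p = 0.129), and 0.50 without NrasG12D library 3 (SE 0.096, limma adjusted p = 0.00963).

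The other E proteins and the ID proteins, which bind E proteins and block them, were set beside it. Of 6 such genes 5 were listed and 0 passed, and without NrasG12D library 3, 2 rose, against 18% of all genes. Id3 was at 10.4, 18.4 and 6.01 normalized CPM in NrasG12D libraries against 2.35 and 3.08 in Cux1-low libraries, with no overlap (log2 difference 1.65, SE 0.41, limma adjusted p = 0.0765). Tcf4, the E protein of plasmacytoid dendritic cells, was at 113 ± 3.94 in NrasG12D (SD, n = 3) and 123 ± 0.332 in Cux1-low libraries (SD, n = 2), a log2 difference of -0.13 (limma adjusted p = 0.384). The log2 ratio of Tcf3 to Id2 averaged 4.15 ± 0.384 in NrasG12D (SD, n = 3) and 4.11 ± 0.155 in Cux1-low libraries (SD, n = 2). Its difference of 0.043 was within the spread between libraries (exact 2-sided permutation p = 1, adjusted over 3 pairs p = 1, where 10 arrangements allow no p below 0.2).

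Ikzf1 (chromosome 11, 11685003 to 11772926, plus strand) encodes Ikaros, a zinc finger factor that acts with the NuRD chromatin remodelling complex. It was at 186, 221 and 173 normalized CPM in NrasG12D libraries and at 169.7 and 171 in Cux1-low libraries. The groups did not overlap, but NrasG12D library 3 lay close above the Cux1-low libraries. The log2 difference was 0.17 (SE 0.13, limma adjusted p = 0.368), and 0.25 without NrasG12D library 3 (SE 0.11, limma adjusted p = 0.115).

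Ikzf3 (chromosome 11, 98464902 to 98546031, minus strand) encodes Aiolos, a close relative of Ikaros that acts later in B cells. It was the lowest member, at 3.49, 4.91 and 1.46 normalized CPM in NrasG12D libraries (68, 86 and 24 recovered reads) and 2.99 and 3.03 in Cux1-low libraries (61 and 63 reads). Library 3 lay below and libraries 1 and 2 above the Cux1-low values. The log2 difference was 0.0046 (SE 0.38, limma adjusted p = 0.994), and its sign turned under 6 of 13 alternatives. The log2 ratio of Ikzf3 to Ikzf1 averaged -5.59 ± 0.492 in NrasG12D (SD, n = 3) and -5.42 ± 0.0055 in Cux1-low libraries (SD, n = 2), a difference of -0.17 (exact 2-sided permutation p = 1, adjusted p = 1 over 3 pairs). Of the other Ikaros family and NuRD genes, 15 of 16 were listed, 0 passed and 10 had a positive sign, with a median of 0.11. The histone-binding NuRD subunit gene Rbbp4 was at 720 ± 34.6 in NrasG12D (SD, n = 3) and 531 ± 48.1 in Cux1-low libraries (SD, n = 2), with a log2 difference of 0.44 (limma adjusted p = 0.0769). Mta1, another subunit gene, gave 0.55 (limma adjusted p = 0.105). Without NrasG12D library 3, 3 of these genes rose and 1 fell, against 18% and 19.4% of all genes.

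Satb1 (chromosome 17, 51736187 to 51833290, minus strand) encodes a chromatin organizer that promotes lymphoid output of stem cells in the mouse and later T cell development. It was at 82.0, 66.8 and 85.2 normalized CPM in NrasG12D libraries and at 103 and 135 in Cux1-low libraries. Every NrasG12D library lay below both Cux1-low libraries, and library 3 was the nearest to them. The mean was 78.0 ± 9.80 in NrasG12D (SD, n = 3) and 119 ± 22.6 in Cux1-low libraries (SD, n = 2), 1.53-fold lower. The log2 difference was -0.60 (SE 0.16, limma adjusted p = 0.0835), and -0.67 without NrasG12D library 3 (SE 0.16, limma adjusted p = 0.0206). In the authors' deposited table, Satb1 had a log2 fold change of -0.61 with an adjusted p of 0.0138. Satb1 exons share 156 bases with Gm36931 on the same strand and 128 with Gm6934 on the other, so a share of its reads is uncertain. Of 6 other genes listed as SATB factors and partners, 5 were measured and 0 passed, with a median of 0.18. Without NrasG12D library 3, 2 of them rose, against 18% of all genes. Baz1a, a subunit gene of an ISWI remodelling complex, was at 142 ± 15.3 in NrasG12D (SD, n = 3) and 92.5 ± 3.20 in Cux1-low libraries (SD, n = 2), with a log2 difference of 0.61 (limma adjusted p = 0.0590). Sub1, which encodes a transcriptional coactivator, gave 0.27 (limma adjusted p = 0.182).

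Notch1 (chromosome 2, 26457903 to 26516663, minus strand) encodes the receptor whose signal commits progenitors to the T lineage. It was at 54.0, 52.2 and 39.6 normalized CPM in NrasG12D libraries and at 71.1 and 54.7 in Cux1-low libraries. The groups did not overlap, but the highest NrasG12D and the lowest Cux1-low library differed by less than 1 normalized CPM. The mean was 48.6 ± 7.84 in NrasG12D (SD, n = 3) and 62.9 ± 11.6 in Cux1-low libraries (SD, n = 2), 1.29-fold lower. The log2 difference was -0.37 (SE 0.18, limma adjusted p = 0.218), and -0.23 without NrasG12D library 3 (SE 0.15, limma adjusted p = 0.257). Notch1 exons share 1068 bases with 0610009E02Rik and 414 with Gm13568, both on the other strand, so a share of its reads is uncertain.

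Of 35 other Notch pathway genes, 28 were listed and 0 passed, with 14 positive and 14 negative signs and a median of -0.017. The ligand genes Dll1, Dll4 and Jag1 and the T lineage target genes Dtx1 and Ptcra were not listed. Aph1b, a gamma-secretase subunit gene, was at 1.62 ± 0.716 normalized CPM in NrasG12D (SD, n = 3) and 5.61 ± 0.656 in Cux1-low libraries (SD, n = 2), a log2 difference of -1.37 (limma adjusted p = 0.0615). Maml2, a coactivator gene of the Notch complex, gave -1.19 (limma adjusted p = 0.0806). The Notch target genes Hes1 and Nrarp, chosen after their values were seen, had differences of 0.52 and 0.53 (limma adjusted p = 0.196 and 0.129), opposite in sign to that of Notch1. Without NrasG12D library 3, 3 pathway genes rose and 9 fell, against 18% and 19.4% of all genes.

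**Figure D3:**
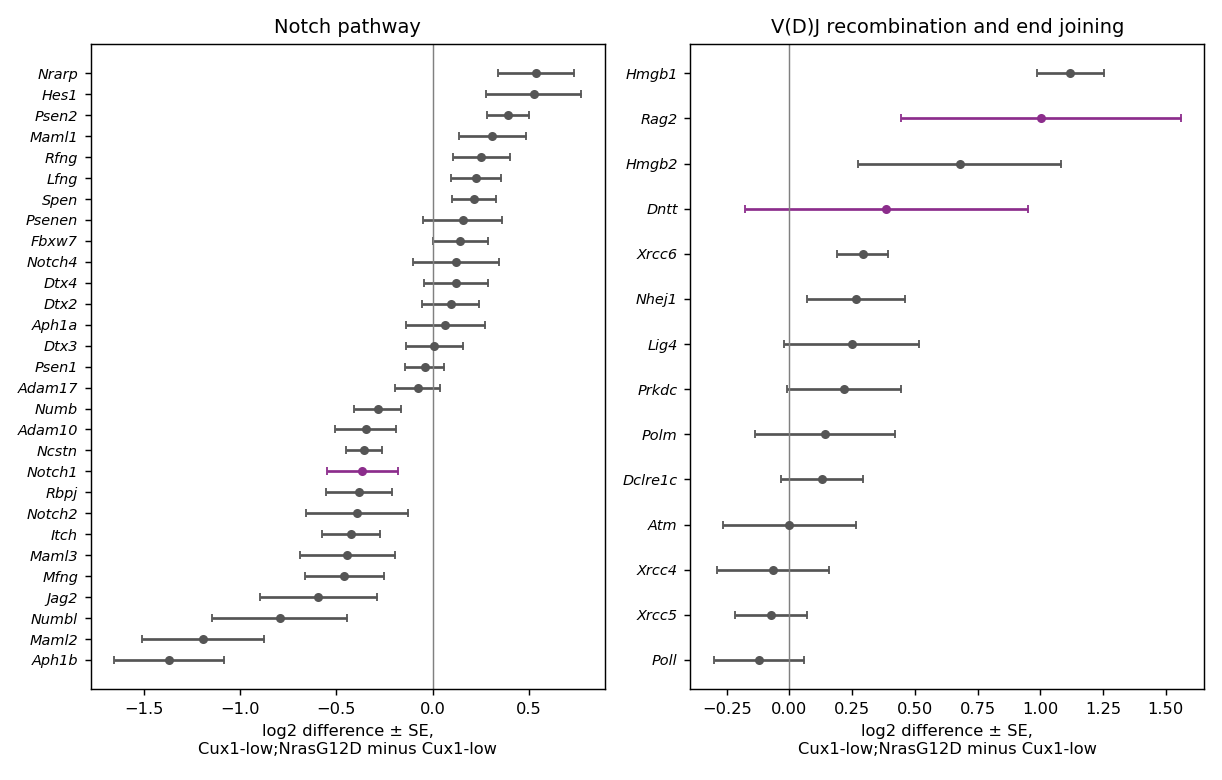
Log2 differences with their SE (horizontal axes, Cux1-low;NrasG12D minus Cux1-low) of the listed Notch pathway genes (left) and of the V(D)J recombination and end joining genes (right), with Notch1, Dntt and Rag2 in purple. Aph1b lies lowest on the left at -1.37, and Hmgb1, at 1.12, is the only gene of either panel past the threshold.

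To compare levels between genes, values were divided by exon length in kilobases. This length joins the exons of every annotated transcript of a gene and can exceed that of the RNA present, so the order of genes is approximate. On this scale Tcf3 averaged 132 normalized CPM per kilobase in NrasG12D and 101 in Cux1-low libraries, the highest member mean in both groups. Dntt followed in NrasG12D libraries at 93.2 ± 58.8 (SD, n = 3), and its highest library exceeded the highest Tcf3 value. Jchain followed in Cux1-low libraries at 88.7 ± 62.1 (SD, n = 2), and was at 13.7 ± 7.18 in NrasG12D libraries (SD, n = 3). Dntt was at 60.9 ± 15.6 in Cux1-low libraries (SD, n = 2), below Tcf3 in both. The Jchain values there, 44.7 and 133, reached below Dntt and above Tcf3. Ikzf1 was at 33.4 and 29.5 per kilobase, Satb1 at 4.10 and 6.26, Notch1 at 3.42 and 4.42, Rag2 at 3.50 and 1.36 and Ikzf3 at 0.375 and 0.344, each as the NrasG12D mean and then the Cux1-low mean. Satb1, Rag2 and Notch1 overlapped in NrasG12D libraries.

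The log2 ratio of Jchain to Dntt was -2.60, -2.71 and -2.18 in NrasG12D libraries and -0.021 and 1.01 in Cux1-low libraries. The groups did not overlap, and NrasG12D library 3 lay near libraries 1 and 2, although both of its values were the lowest of the group. The mean was -2.50 ± 0.276 in NrasG12D (SD, n = 3) and 0.496 ± 0.731 in Cux1-low libraries (SD, n = 2). The difference was -2.99 (exact 2-sided permutation p = 0.2, the smallest possible, adjusted p = 0.6 over 3 pairs). It is given as a description, because the pair was chosen with the values of both genes known.

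A search for genes of similar pattern covered 10132 candidates of the 11352 genes. It left out members, sex-linked genes, gene models without a descriptive symbol and genes averaging under 2 on the log2 scale. The most similar were those with the smallest root mean square (RMS) difference of centred log2 values over the 5 libraries. For Dntt these were Arpp21 (0.151) and Cd248 (0.204), against an RMS of 0.743 for Dntt itself. For Rag2 they were Bfsp2 (0.154) and Chst10 (0.194). For Jchain the nearest were the interferon-induced gene Ifi44 (0.596) and Fam132a (0.657), both far from it when set against its own RMS of 1.47, so no candidate followed Jchain closely. Ifi44 was at 4.46, 4.68 and 4.80 normalized CPM in NrasG12D libraries and at 14.1 and 38.3 in Cux1-low libraries. For Ikzf3 they were Siglecg, which encodes an inhibitory lectin of B cells (0.0837), and Fam83d (0.106). Satb1 was nearest to Ppcdc (0.0444) and Sh2d3c (0.0524), and Notch1 to Bhlhe40 (0.0566) and Cep162 (0.0839). For Wsb2 and Sp2, nearest to Ikzf1, and Apeh and Dnajc11, nearest to Tcf3, the RMS difference was 0.0083 to 0.020. With 5 libraries such likeness is a description.

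Lymphoid-primed progenitor markers, set beside the members in cells that were sorted against CD135, had mixed signs. All 21 were listed, 0 passed, 9 had a positive and 12 a negative sign, and the median was -0.24. Flt3, which encodes the CD135 receptor of the gate, was at 196, 165 and 230 normalized CPM in NrasG12D libraries and at 326 and 388 in Cux1-low libraries (log2 difference -0.86, SE 0.16, limma adjusted p = 0.0538). Wfdc17 gave -1.56 (limma adjusted p = 0.0682). Without NrasG12D library 3, 6 rose and 9 fell, against 18% and 19.4% of all genes. The authors' deposited table called 2 of the 21 higher and 7 lower, against 6.97% and 9.14% of all genes. Of genes chosen after their values were seen, Ltb, which encodes lymphotoxin beta, had a log2 difference of -1.24 (limma adjusted p = 0.0684). Blnk, a B cell adaptor gene, gave 2.42 and Il7r, an interleukin-7 receptor gene, 1.504 (limma adjusted p = 0.221 and 0.232).

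**Figure D4:**
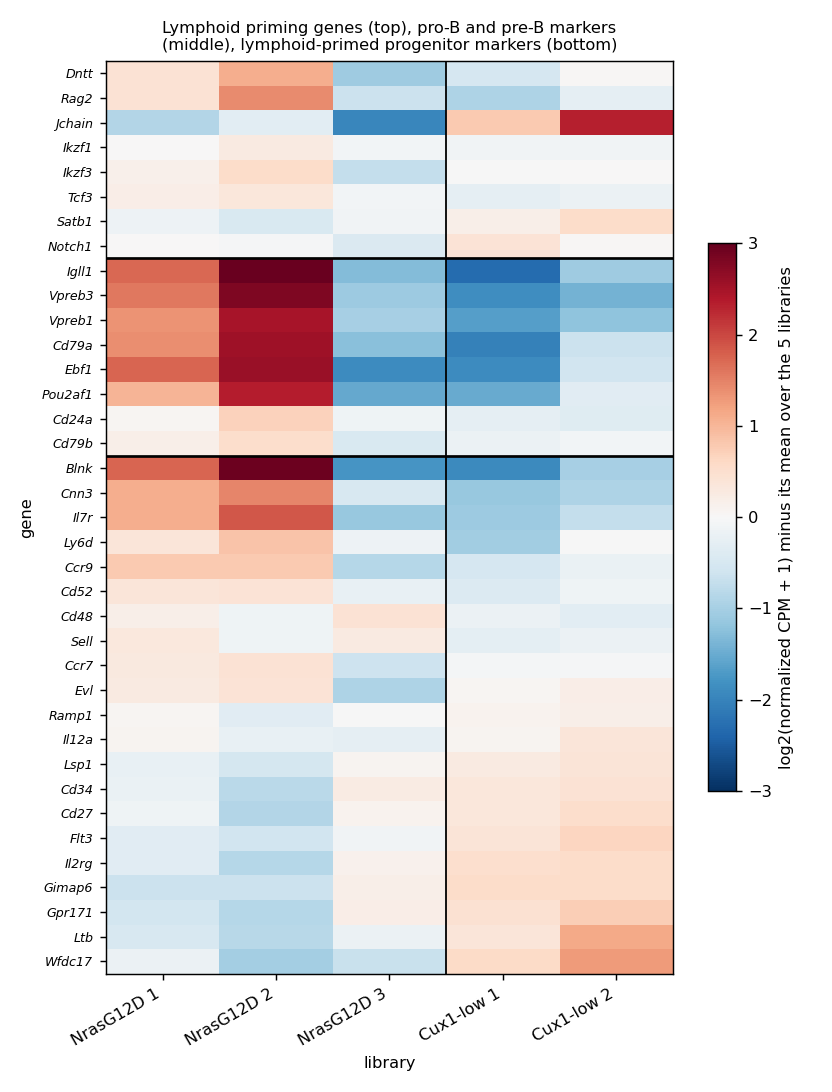
Colour shows log2(normalized CPM + 1) minus the gene's mean over the 5 libraries (columns, Cux1-low;NrasG12D left of the line) for the 8 lymphoid priming genes, 8 of the 9 listed pro-B and pre-B markers and 21 lymphoid-primed progenitor markers (rows). Dntt and Rag2 are pale red in NrasG12D library 1 and darker in library 2, in both paler than most of the B lineage block. Tcf3, Ikzf1 and Ikzf3 also have their highest values in libraries 1 and 2. Jchain is red in the Cux1-low libraries, where Satb1, Ltb and Flt3 are paler red. Of the progenitor markers, 12 have a negative and 9 a positive log2 difference.

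Other lymphoid transcription factor genes gave 0 calls among 21 listed of 24, with 9 positive and 12 negative signs and a median of -0.087. Without NrasG12D library 3, 6 of them rose and 6 fell, against 18% and 19.4% of all genes. Mef2c, a factor of early lymphoid fate, was at 146 ± 23.8 in NrasG12D (SD, n = 3) and 228 ± 11.01 in Cux1-low libraries (SD, n = 2), a log2 difference of -0.65 (limma adjusted p = 0.0684). Tox, a factor of T cell and innate lymphoid development, gave -0.61 (limma adjusted p = 0.0863). Lef1, chosen after its values were seen, was at 21.2, 47.2 and 1.22 normalized CPM in NrasG12D libraries and at 0.931 and 2.21 in Cux1-low libraries, the library order of Rag2 within the NrasG12D group.

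Markers of mature lymphoid and dendritic cells, which the sort for KIT and SCA1 and against lineage markers is meant to leave out, were also counted. Here and in the next paragraph, counts without NrasG12D library 3 stand against 18% of all genes higher and 19.4% lower in that fit. Of the T cell markers 6 of 15 were listed and 0 passed, with a summed level of 95.7 to 119 normalized CPM in NrasG12D and 105 and 118 in Cux1-low libraries. Cd3d, Cd3e and Cd3g were not listed, Trat1 gave 0.72 (limma adjusted p = 0.119) and Cd247 -0.42 (limma adjusted p = 0.258), and 2 rose without NrasG12D library 3. Of the NK and innate lymphoid markers 6 of 13 were listed and 0 passed, with a summed level of 206 to 344 in NrasG12D and 257 and 272 in Cux1-low libraries. Without Nkg7 this sum was 21.4 to 31.7 in NrasG12D and 33.7 and 29.0 in Cux1-low libraries. The 2 named genes of this list were Rora at -0.63 and Il2rb at 0.67 (limma adjusted p = 0.205 and 0.405), and 1 rose without NrasG12D library 3. Of the plasmacytoid dendritic cell markers 9 of 14 were listed and 0 passed, with Irf7 at -0.44 and Ly6c2 at 1.08 (limma adjusted p = 0.117 and 0.124), and 4 rose without that library. Their summed level was 434 to 847 in NrasG12D and 439 and 459 in Cux1-low libraries. Without Irf8 this sum was 412, 370 and 313 in NrasG12D and 323 and 336 in Cux1-low libraries.

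Stem cell, erythroid and granulocyte-monocyte markers were counted last. Of the stem cell markers 14 of 15 were listed, 13 had a negative sign and 0 passed (median -1.10), and 12 fell without NrasG12D library 3. Their summed level was 521 to 1054 normalized CPM in NrasG12D and 1653 and 1688 in Cux1-low libraries, with Ctnnal1 at -0.89 (limma adjusted p = 0.0508) and Mecom at -1.73 (limma adjusted p = 0.0517). All 11 listed of 15 erythroid markers had a positive sign and 0 passed (median 0.81), with a summed level of 5900 to 11600 in NrasG12D and 4846 and 5264 in Cux1-low libraries, and 10 rose without that library. Klf1 and Blvrb gave 1.08 each (limma adjusted p = 0.0774 and 0.0769). Of the granulocyte-monocyte markers 13 of 15 were listed and 0 passed, with 11 positive and 2 negative signs (median 0.36), with a summed level of 8559 to 20082 in NrasG12D and 7893 and 11089 in Cux1-low libraries, and 7 rose and 2 fell without that library. The groups overlapped in this sum, and without Mpo it was 1642 to 3735 in NrasG12D and 1640 and 2290 in Cux1-low libraries. Gfi1, of the negative signs, gave -0.82 and Ly6c2, of the positive ones, 1.08 (limma adjusted p = 0.0816 and 0.124). The authors' deposited table called 10 of the 14 listed stem cell markers lower and 0 higher, against 9.14% and 6.97% of all genes. Of the 11 listed erythroid markers it called 8 higher and 0 lower, and of the 13 granulocyte-monocyte markers 1 higher and 1 lower. Apart from these, the pro-B and pre-B markers and the lymphoid-primed progenitor markers, each list had at most 3 called there in each direction. The part of a changed mix of progenitors in the members' values was not tested.

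**Figure D5:**
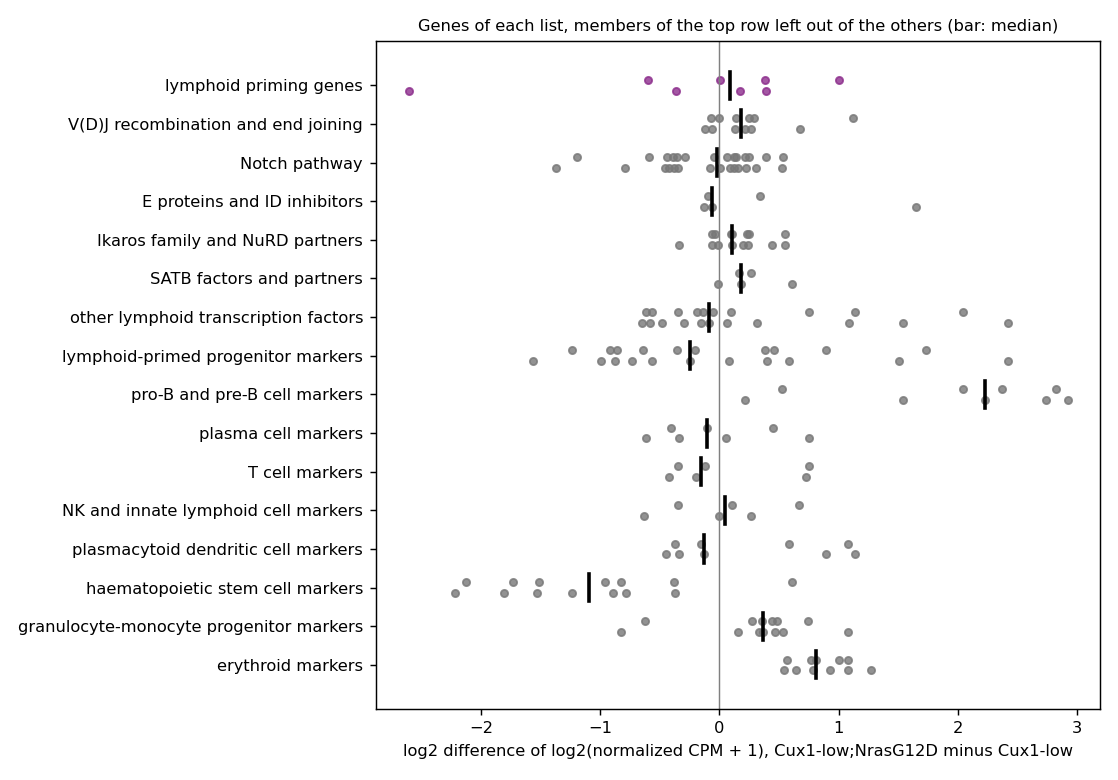
Log2 difference (horizontal axis, Cux1-low;NrasG12D minus Cux1-low) of every listed gene (points) in the lymphoid priming set (purple, top row) and in 15 other lists (grey), with black bars for medians. The lymphoid priming genes spread from -2.61 to 1.003 around a median of 0.09, the pro-B and pre-B markers have a median of 2.23 and the stem cell markers one of -1.10.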

How the data were processed

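Polyadenylated RNA had been isolated with Trizol and made into libraries with the Illumina TruSeq v2 kit, per the labels' protocols. Per the submitters' processing notes, TopHat, HTSeq and edgeR were used and the builds hg19 and mm10 are named, and their roles, versions and strand setting are not given in the sources used here. The authors' deposited table gives 1 signal value per library, headed CPM per the file headers, whose columns sum to 971746 to 1026780, so they are called normalized CPM. Beside these stand the authors' deposited log2 fold changes and log2 means, a likelihood ratio score that was not used, and p-values. A positive log2 fold change there means higher in NrasG12D.

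In each library 100% of the values were whole multiples of a single step (tolerance 0.001 steps), which was taken as the value of 1 read. A separate automated search for such a step among the low values did not find it in any library, so the recovered reads are estimates. No count model was fitted to them, they serve only to judge low levels, and no counting interval was computed. limma 3.58.1 (R 4.3.3) with a trended variance was fitted to log2(normalized CPM + 1) for all 11352 genes, for 3 NrasG12D against 2 Cux1-low libraries. No block was used, p-values were adjusted by Benjamini-Hochberg and 0.05 was the threshold. A filter of at least 1 in at least 2 libraries removed 0 genes. The differences understate changes of low genes. 

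The members and the 15 other lists, counted without members (224 genes, 173 listed), were chosen with earlier results of these data known. Named list genes are up to 4 past the threshold, or the 2 of lowest p where fewer passed, and the text marks any further gene as picked later. 1 gene that this rule names is counted in its list but not reported here. Alternatives varied pseudocount, filter, variance model, scaling, block and each library. Gene positions and exon lengths are from GENCODE release M21 (mm10), promoters from RefSeq (GRCm38.p6). Tables were made in Python 3.11.15 with pandas 2.3.3, permutation tests with scipy 1.17.1, and plots with matplotlib 3.10.9.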

Additional observations from a re-analysis of the deposited data

How the results depend on the processing

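Of the 8 lymphoid priming genes, 0 passed in either direction with pseudocounts of 0.1 and 0.5, without a filter, with a filter of 5 (which removed Ikzf3), without the trend, with robust limma and with both rescalings. Over the fits that each leave out 1 library, the count of members that rose was 0 to 3 and the count that fell 0 to 2, and both were above 0 only without NrasG12D library 3. Over 111 fits of single members under the alternatives, 94 kept the direction and the side of the threshold, 10 kept the direction and passed, and 7 changed sign. The 10 were 5 members counted in 2 fits with equal differences, that without NrasG12D library 3 and that with the replicate block. Leaving out 1 library gave -0.084 to 0.996 for Dntt and -0.27 to 0.36 for Ikzf3. The signs that changed were those of Dntt (-0.084 without NrasG12D replicate 2) and of Ikzf3, at -0.035 and -0.012 with pseudocounts of 0.1 and 0.5, -0.045 with columns rescaled to the same sum, -0.0030 without Cux1-low replicate 1, -0.074 without NrasG12D replicate 1 and -0.27 without NrasG12D replicate 2. The cause was not tested.

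Over the other lists 1 gene rose and 0 fell. The number that rose was 0 to 51 and the number that fell 0 to 40 when 1 library was left out, with 51 and 40 without NrasG12D library 3. Without the trend 1 fell, and with columns rescaled to the same sum 3 fell, and with columns rescaled to the same median 2 fell. Leaving out 1 library gave differences of the log2 ratio of -0.35 to 0.11 for Ikzf3 to Ikzf1 and -0.18 to 0.17 for Tcf3 to Id2. The first turned to 0.11 without NrasG12D library 3, and the other to -0.18 without NrasG12D library 3 and to -0.066 without Cux1-low library 1. The ratios with Rag1 were not run.

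Whether replicate numbers pair the libraries was not settled. Over genes, deviations from the group means correlated at -0.192 for number 1 and -0.0035 for number 2. With only 2 Cux1-low libraries their deviations mirror each other, so these correlations can neither show nor exclude a pairing. With the replicate block 3 members rose and 2 fell, and 53 and 42 genes of the other lists did, against 36.7% of all genes called. NrasG12D library 3 has no partner and is absorbed by its own block term, so the members' differences in this fit equal those without that library. Of the members, Ikzf3, at 24 to 86 recovered reads per library, and Rag2, at 69 to 374, are the most limited by depth.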
